A study of Mus musculus with 8 samples.

Results

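This account follows 9 genes that set the sterol balance of a cell, from the factors that switch on sterol synthesis and uptake to the pumps that export sterol, in mouse CD8+ T cells stimulated by 2 kinds of antigen-presenting cell. The genes were found by name in the deposited table of gene signals, which spells them SREBF1, SREBF2, SCAP, INSIG1, INSIG2, STARD4, ABCA1, ABCG1 and MYLIP, and all 9 were among its 18138 gene names. In the cB group, OT-1 T cells, whose transgenic receptor sees an ovalbumin peptide on H2-Kb, were stimulated by CD40-activated B cells. In the DC group the stimulating cells were dendritic cells. What both groups shared was LPS maturation and peptide loading of the presenting cells, a co-culture of 24 h at a ratio of 5:1, and a sort for CD8+CD69+ cells before RNA extraction. Each group had 4 Illumina mouse-ref8-v2.0 arrays. Unstimulated T cells and the presenting cells alone were not analysed here, so each value compares one stimulated state with another. Nothing in the labels says that the 4 samples of a group came from separate cultures or animals, so a p-value here reflects the scatter among these samples alone, and that scatter may be technical.

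SREBF1 and SREBF2 encode the sterol regulatory element binding proteins (SREBPs), membrane-bound transcription factors that become active only after they leave the endoplasmic reticulum and are cut in the Golgi. The escort protein Scap carries them out when sterol is scarce, and Insig1 and Insig2 hold Scap back when sterol is plentiful; Insig1 is itself switched on by SREBPs, which makes it a common readout of their activity. The opposing arm is run by the liver X receptors (LXRs), which are activated by oxysterols and switch on the export pumps Abca1 and Abcg1, the ubiquitin ligase Mylip (also called Idol), which removes lipoprotein receptors from the surface, and Srebf1. In mouse T cells, activation is known to raise SREBP-driven sterol synthesis and to lower LXR signalling as cells prepare to divide.

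The promoters of Srebf2, Insig1 and Abca1 are shown as those of an SREBP gene, an SREBP target and an LXR target. A motif of the SREBP arm was found in Srebf2 and one of the LXR arm in Abca1. Insig1 held only motifs that are more widespread. RefSeq start sites on GRCm38.p6 gave windows of 300 bases, 250 before and 50 after the start, for 7 of the 9 genes, and letters were searched on both strands. The Srebf2 window, chr15:82147019-82147318 on the + strand, held ATCACCCCA, the core of the classical sterol regulatory element, at positions -163 to -155 from the start, and CCAAT, the letters of the NF-Y box, on the opposite strand at -135 to -131. The Insig1 window, chr5:28071162-28071461 on the + strand, held CCAAT on the opposite strand at -216 to -212 and the E-box CACGTG at -101 to -96, with no ATCACCCCA. For Abca1 only the stretch chr4:53159918-53159992 on the - strand is shown, around a pair of LXR half-sites (GGTNA, repeated after 5 further bases) that lies on the strand opposite to the gene at -67 to -53. No 2 marked motifs overlap, and capitals mark them.
Srebf2: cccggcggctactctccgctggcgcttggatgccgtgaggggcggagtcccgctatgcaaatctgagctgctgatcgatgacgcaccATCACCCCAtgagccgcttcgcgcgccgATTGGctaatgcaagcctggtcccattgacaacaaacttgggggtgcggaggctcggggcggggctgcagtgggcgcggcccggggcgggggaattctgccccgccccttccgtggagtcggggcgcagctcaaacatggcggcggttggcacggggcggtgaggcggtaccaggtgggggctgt
Insig1: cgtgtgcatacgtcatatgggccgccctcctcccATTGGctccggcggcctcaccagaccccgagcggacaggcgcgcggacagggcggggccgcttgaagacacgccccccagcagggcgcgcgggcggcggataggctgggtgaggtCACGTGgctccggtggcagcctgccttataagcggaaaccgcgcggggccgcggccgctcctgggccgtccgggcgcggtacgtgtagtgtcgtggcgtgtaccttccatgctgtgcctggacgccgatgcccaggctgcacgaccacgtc
Abca1: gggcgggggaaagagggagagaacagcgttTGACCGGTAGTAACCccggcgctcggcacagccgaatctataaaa
Of 32851 RefSeq windows of this length, 0.28% held ATCACCCCA, 0.718% held the LXR half-sites, 7.15% held CACGTG and 37.4% held CCAAT. Among the 7 genes with a window, ATCACCCCA was found in Srebf2 alone, and the LXR half-sites in Abca1 and in 1 of the 3 windows of Srebf1. These are matches of letters and say nothing about binding in these cells.

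An intron of Srebf2 hosts a microRNA that lowers Abca1 in mouse, miR-33, so that one transcript carries both an activator of sterol supply and a brake on export. RefSeq places its 5p strand inside Srebf2 at chr15:82198127-82198147 on the + strand of GRCm38.p6. It is printed because it links the 2 arms, with its seed (bases 2 to 8) in capitals.
mmu-miR-33-5p: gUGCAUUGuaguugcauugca
The table has no row for this microRNA, so its level is not analysed here.

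Signals were average bead intensities, and the mean over all genes was 602 to 824 per array. A gene counted as detected on an array at a detection p below 0.05, which 38.3 to 40.8% of genes reached, and the 7167 genes detected on at least 4 of 8 arrays were tested. Differences are log2 differences, cB minus DC, of background-corrected and quantile-normalized values, tested with limma and called at a Benjamini-Hochberg adjusted p below 0.05. The groups were far apart: 61.4% of tested genes were called, 29.8% higher in cB and 31.6% higher in DC, and in 56.8% the arrays of the groups did not overlap. The median difference over all tested genes was -0.03. Array-to-array correlations were 0.979 to 0.989 within cB, 0.988 to 0.990 within DC and 0.863 to 0.883 across groups; cB replicate 4 had 143 genes more than 1 log2 unit below the mean of the other cB arrays, where each of the other 7 arrays had 6 to 30 such genes below its own group. Of the T cell genes, 9 or 10 of 11 were detected on cB arrays and 10 of 11 on DC arrays; Cd8b1 was detected throughout (difference -0.06 ± 0.11, SE, adjusted p = 0.669), whereas the row for Cd8a was undetected on all 8 arrays. Of the 10 T cell genes tested, Thy1 (0.90) and Cd2 (0.60) were higher in cB, and Cd247 (-0.68), Cd3d (-0.54), Cd3e (-0.32) and Cd69, by which the cells were sorted (-2.15), were higher in DC.

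The 9 genes did not move as one. Srebf2, Insig1 and Stard4 were higher in cB-stimulated cells, Scap and Insig2 were higher in DC-stimulated cells, Abcg1 did not pass the test, and Srebf1, Abca1 and Mylip did not pass the detection filter and were not tested. So 5 of the 6 tested genes were called, against 61.4% of all tested genes, 3 of them higher in cB against 29.8% and 2 higher in DC against 31.6%. The groups did not overlap in 4 of the 6, against 56.8% overall. With most of the array differing, these shares do not set the genes apart, and dim genes pass the filter on the strength of the group in which they are bright, so the values of each gene follow. The median of the 6 differences was 0.27.

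**Figure D1:**
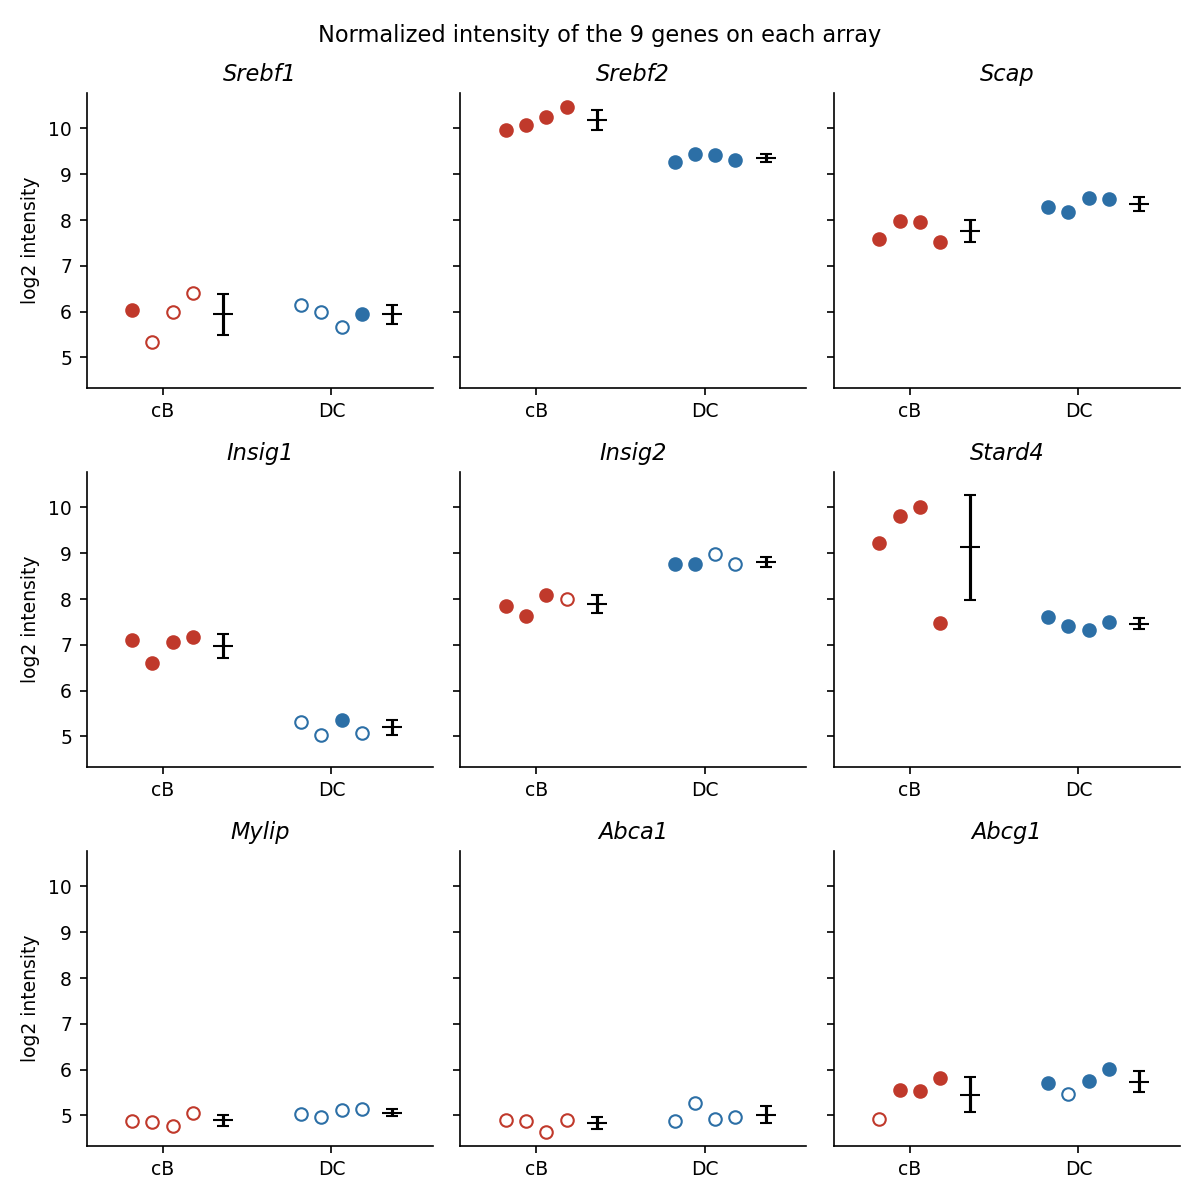
Normalized log2 intensity (vertical axis) of the 9 genes on each of the 4 cB arrays (red) and 4 DC arrays (blue), filled where the detection p was below 0.05, with the mean and SD beside each group. Srebf2 and Insig1 lie higher on all cB arrays and Scap and Insig2 on all DC arrays, while in Stard4 cB replicate 4 (the rightmost red point, at 7.49) lies among the DC arrays.

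Srebf2, the factor that mainly drives genes of cholesterol synthesis and uptake, was the brightest of the 9. Its intensities were 1170, 988, 1668 and 1753 on the cB arrays, against 702, 751, 941 and 751 on the DC arrays. Every cB array was above every DC array. The normalized log2 level averaged 10.19 ± 0.22 in cB and 9.36 ± 0.08 in DC (SD, n = 4 each), a difference of 0.83 ± 0.12 (SE; 95% interval 0.55 to 1.10), or 1.78-fold, with a limma adjusted p of 0.000238. Its call held under the 18 other limma settings tried, with differences of 0.70 to 0.96.

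Srebf1, which gives rise to the isoform that drives fatty acid synthesis and is an LXR target in liver, did not pass the detection filter, although its mean intensity was above that of Abcg1, which did. Intensities were 214, 166, 223 and 244 in cB, against 208, 193, 199 and 195 in DC, and it was detected on 1 array of each group. The mean log2 levels were 5.94 ± 0.44 in cB and 5.94 ± 0.20 in DC (SD, n = 4 each). Chosen by signal instead, a filter added after seeing the data, it differed by 0.00 ± 0.21 (SE, limma adjusted p = 0.997), and the difference in the authors' deposited table was 0.00 (limma adjusted p = 0.973). The table has 1 row for the gene, so its isoforms could not be told apart.

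Scap, the escort that SREBPs need to reach the Golgi, went the other way from Srebf2. Its normalized log2 values were 7.58, 7.97, 7.97 and 7.51 on the cB arrays, against 8.29, 8.16, 8.48 and 8.45 on the DC arrays, with no overlap. The difference was -0.59 ± 0.14 (SE; 95% interval -0.90 to -0.28), or 1.5-fold higher in DC, at a limma adjusted p of 0.00426. The intensities before normalization did overlap, at 349, 333, 469 and 356 in cB, against 424, 383, 560 and 466 in DC. The difference was -0.26 with the background taken from all rows, -0.37 with no background correction and -0.38 in the authors' deposited table.

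The 2 Insig genes, whose proteins hold Scap in the endoplasmic reticulum, moved in opposite directions. Insig1, the form induced by SREBPs, had intensities of 292, 214, 317 and 308 in cB, against 179, 159, 185 and 161 in DC. All cB arrays lay above all DC arrays. The cB values were 4.36 to 8.62 negative-control SDs above the negative-control mean, and the DC values 0.45 to 1.40, so that the gene was barely above background in DC-stimulated cells and was detected there on 1 array. The normalized log2 levels were 6.98 ± 0.26 in cB and 5.20 ± 0.17 in DC (SD, n = 4 each), a difference of 1.78 ± 0.15 (SE; 95% interval 1.45 to 2.11), or 3.44-fold, with a limma adjusted p of 4.25e-06.

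The direction of Insig1 was the same wherever it was tested, but the size of the change was not. It was 0.65 in the authors' deposited table, 0.60 with no background correction, 1.18 with an offset of 50 and 0.21 with the background from all rows, at limma adjusted p-values of at most 0.000548. With DC levels near the background, the fold depends on how the background is subtracted.

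Insig2, which is not an SREBP target and in liver is lowered by insulin, was higher in DC. Its intensities were 388, 293, 492 and 439 in cB, against 535, 514, 737 and 557 in DC. Every DC array was above every cB array. The log2 level averaged 7.89 ± 0.20 in cB and 8.82 ± 0.11 in DC (SD, n = 4 each), a difference of -0.93 ± 0.12 (SE; 95% interval -1.19 to -0.66), or 1.90-fold higher in DC, at a limma adjusted p of 9.14e-05. The difference was -0.53 with the background from all rows. Its deposited detection p did not follow its signal: the brightest array, DC replicate 3, lay 34.4 negative-control SDs above the mean and still had a detection p of 0.0844. Insig1, Srebf1 and Mylip are, like Insig2, among the 4209 rows whose detection p is not a rank among the negative controls.

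**Figure D2:**
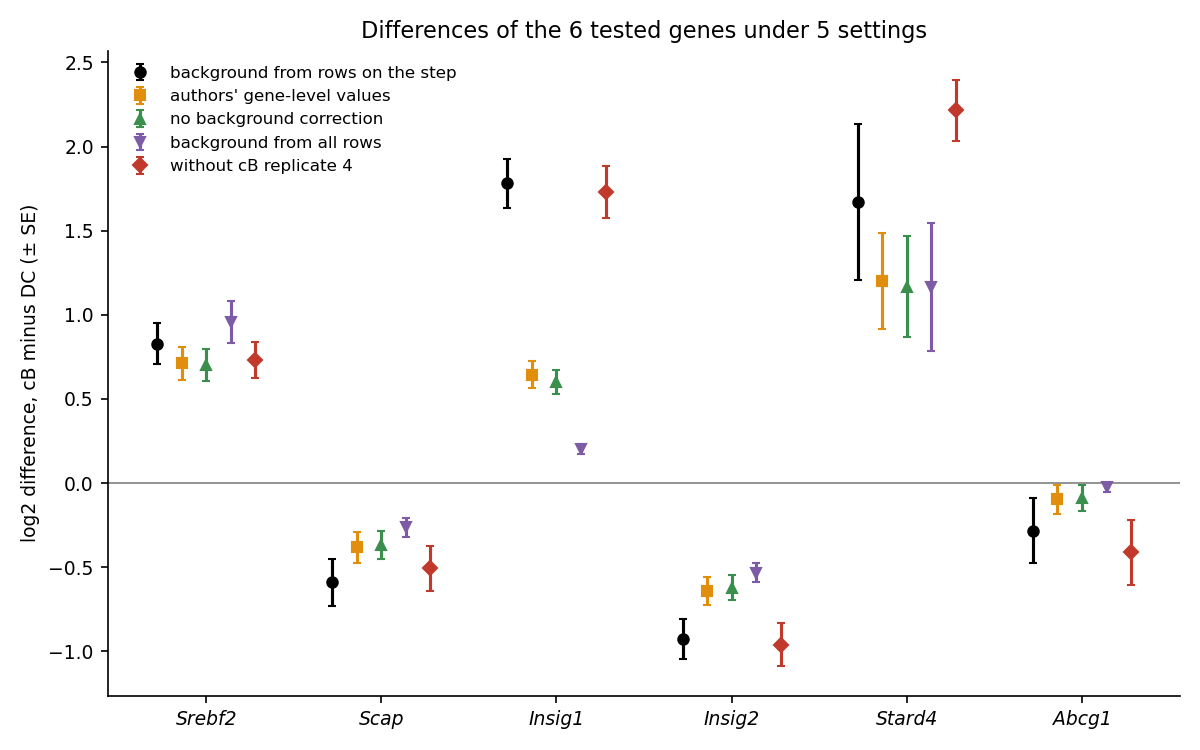
Log2 difference, cB minus DC, with its SE (vertical axis) for the 6 tested genes under 5 settings. The sign of each called gene is the same in all 5, while Insig1 ranges from 0.21 to 1.78 and Stard4 is larger and tighter without cB replicate 4.

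Stard4, a sterol carrier of the cytosol that is induced by SREBPs, was far higher on 3 cB arrays than on the remaining one. Its intensities were 759, 836, 1438 and 351 in cB, against 316, 282, 329 and 307 in DC, so that before normalization every cB array was above every DC array, the lowest by a small margin. In normalized log2 values, where the groups overlapped, these were 9.22, 9.81, 10.001 and 7.49 in cB, against 7.60, 7.42, 7.31 and 7.5 in DC. On that scale cB replicate 4 stood at -2.19 from the mean of the other cB arrays and at 0.03 from the DC mean. The difference was 1.67 ± 0.46 (SE; 95% interval 0.63 to 2.71), or 3.19-fold, with a limma adjusted p of 0.0103. Without cB replicate 4 it was 2.21 ± 0.18 (SE, limma adjusted p = 1.18e-05), and an exact permutation test on all 8 arrays gave a two-sided p of 0.0857, where the smallest p that 4 arrays against 4 allow is 0.0286. In the authors' deposited table the mean difference was 1.20.

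The low Stard4 value of cB replicate 4 had no match of its size among the other tested members or the enzymes given here. On that array Srebf2 was 0.37 and Insig1 0.26 above the mean of the other cB arrays, Insig2 was 0.14 above it and Scap 0.33 below it. Of 12 tested enzymes of cholesterol synthesis, also SREBP targets, 8 were below, with a median of -0.09, and the lowest was at -0.46. Over all 7167 tested genes the median was 0.03, and 15 genes, Stard4 included, were as low or lower. Whether the sample or the measurement of this gene differed was not tested.

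**Figure D3:**
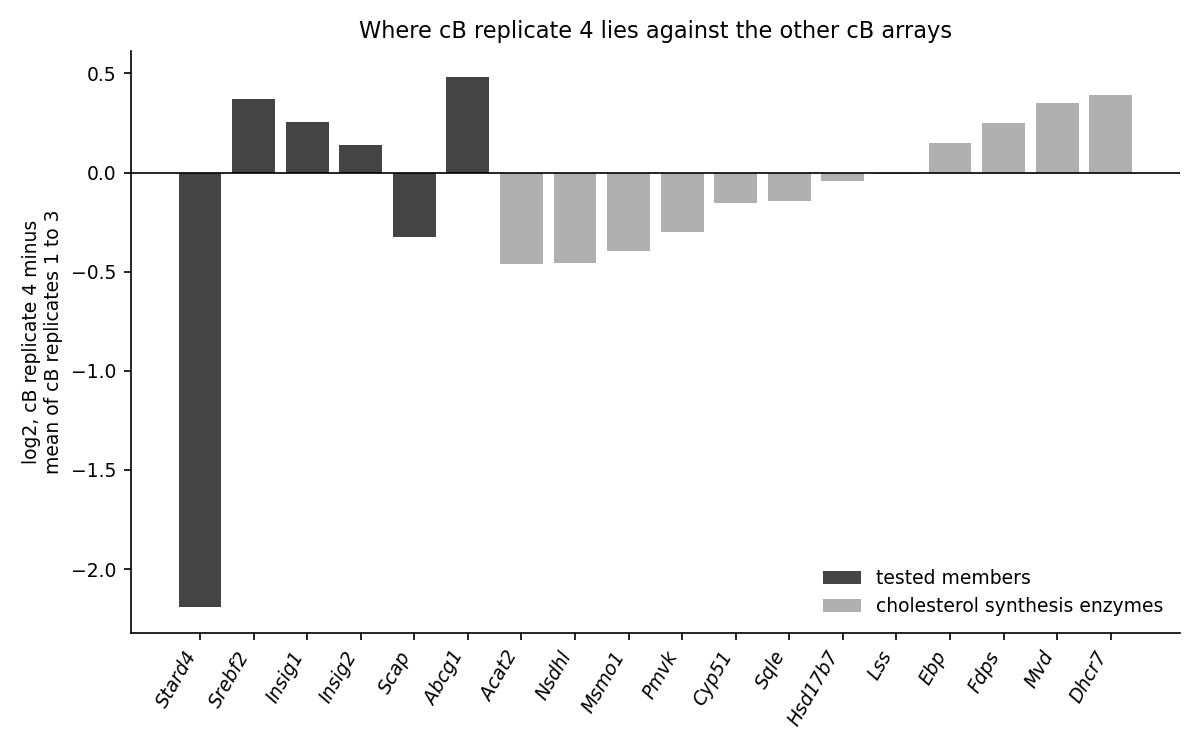
Log2 value on cB replicate 4 minus the mean of cB replicates 1 to 3 (vertical axis) for the 6 tested members (dark bars) and 12 tested enzymes of cholesterol synthesis (grey bars). Stard4 lies at -2.19, and the lowest of these enzymes at -0.46.

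The export pumps Abca1 and Abcg1 and the ligase Mylip were dim. Abca1, the pump that loads cholesterol onto apolipoproteins, had intensities of 162, 147, 142 and 167 in cB, against 159, 169, 164 and 156 in DC, and was undetected on all 8 arrays. Mylip had intensities of 162, 146, 153 and 175 in cB, against 167, 156, 174 and 164 in DC, and was likewise undetected throughout. At this signal no difference could be measured in either gene, and a low level cannot be told from a probe that reports poorly. Without the detection filter the limma adjusted p was 0.345 for Abca1 and 0.277 for Mylip.

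Abcg1, the pump that passes cholesterol to high-density lipoprotein, was the one of these 3 to pass the filter, detected on 3 arrays of each group. Its intensities were 163, 174, 195 and 211 in cB, against 193, 175, 203 and 198 in DC, so the groups overlapped. The difference was -0.28 ± 0.19 (SE, limma adjusted p = 0.233). Its 95% interval ran from -0.72 to 0.15, so neither no change nor a moderately higher level in DC can be set aside. Of 13 transporter genes of the A and G families, 4 were tested: Abca7, a lipid transporter, was higher in DC (-0.81 ± 0.14, SE, limma adjusted p = 0.000733), Abca3, known for lipid export in lung, was higher in cB (0.34 ± 0.13, SE, limma adjusted p = 0.0440, and 0.0541 when all rows gave the background), and Abca2 did not pass (0.32 ± 0.25, SE).

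The SREBP machinery beyond the members held genes of both directions. Of 11 tested genes for cleavage, transport and turnover of SREBPs, Scap and the Insig proteins, 6 were higher in DC and 2 in cB, with a median of -0.44, where 31.6% and 29.8% of all tested genes were. The genes higher in DC included Mbtps1, the Golgi protease that makes the first cut (-0.44 ± 0.09), Sec23a, a coat protein of the vesicles that leave the endoplasmic reticulum (-1.05 ± 0.29), Rnf145, a ligase that acts on Scap in mouse (-0.60 ± 0.14), and Erlin2, a sterol-binding membrane protein (-0.50 ± 0.11, all SE). Its partner Erlin1 was higher in cB, at intensities of 288, 272, 359 and 323 in cB, against 237, 217, 221 and 200 in DC, a difference of 0.93 ± 0.16 (limma adjusted p = 0.000734), as was Hdac3 (0.35 ± 0.09). With the background from all rows the median of this list was -0.10, with 6 higher in DC and 3 in cB.

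Lpin1 fell outside the test and was picked out after its values were seen. It encodes a phosphatidate phosphatase that, in its dephosphorylated form, lowers nuclear SREBP in mouse. Its intensities were 201, 154, 200 and 191 in cB, near background, against 511, 557, 691 and 537 in DC. All DC arrays were above all cB arrays, yet 1 of 8 passed on detection p, since this row too has a detection p that does not follow its signal. With genes chosen by signal above the negative controls instead, a filter added after seeing the data, the difference was -3.34 ± 0.16 (SE, limma adjusted p = 9.91e-08). In the authors' deposited table it was -1.68.

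Genes of lipoprotein uptake and lysosomal sterol release were divided. Of 5 tested, 1 was higher in cB and 2 in DC, where 29.8% and 31.6% of all tested genes were. The median was -0.39, and -0.04 with the background from all rows. The one higher in cB was Vldlr, a lipoprotein receptor that Mylip marks for breakdown, with intensities of 249, 188, 277 and 264 in cB, against 158, 148, 166 and 150 in DC. It was not above background on any DC array, where its signal was -0.28 to 0.27 negative-control SDs from the mean. On the background-corrected scale it was at least 1.93-fold higher in cB, counting from the lowest signal that was above background on each DC array (limma difference 1.61 ± 0.16, adjusted p = 1.56e-05). That size rests on the background: the difference was 0.57 in the authors' deposited table, 0.53 with no correction and 0.16 when all rows gave the background. Those higher in DC were the lysosomal membrane genes Scarb2 (-1.42 ± 0.10) and Lamp2 (-0.63 ± 0.11, both SE).

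Of 9 tested sterol transfer genes, 4 were higher in DC and 1, Stard4, in cB in the main fit. Over all tested genes these shares were 31.6% and 29.8%. Osbpl2 was close to the threshold (0.30 ± 0.12, SE, limma adjusted p = 0.0549). It passed with the background from all rows (0.0440), with no correction (0.0448) and in the authors' deposited table (0.0496). The 4 higher in DC were Osbpl9 (-1.10 ± 0.15), Stard3, which tethers late endosomes to the endoplasmic reticulum (-0.77 ± 0.18), and Gramd1a and Gramd1b, which carry cholesterol from the plasma membrane (-0.61 ± 0.14 and -0.51 ± 0.16, all SE). With the background from all rows, Stard3 and Gramd1a, both dim, differed by -0.09 and -0.12, and Osbpl9 and Gramd1b by -1.14 and -0.60. In the authors' deposited table Stard3 was at -0.28 and Gramd1a at -0.29. The median of the 9 was -0.09 in the main fit.

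The LXR receptors gave 1 clear measurement. Nr1h2, which encodes LXR-beta, had intensities of 943, 691, 1162 and 1266 in cB, against 1595, 1441, 1647 and 1442 in DC, with no overlap, and a difference of -0.83 ± 0.13 (SE, limma adjusted p = 0.000293). Nr1h3, which encodes LXR-alpha, did not pass the filter. The corepressor gene Ncor1 was also higher in DC (-0.77 ± 0.22), and the partner receptors Rxra (0.35 ± 0.19) and Rxrb (-0.15 ± 0.09, all SE) did not pass the test.

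Known LXR targets did not share a direction. Of 9 tested, 4 were higher in DC and 2 in cB, where 31.6% and 29.8% of all tested genes were. The median was -0.28, and -0.02 with the background from all rows. Arl4c, a small GTPase, had intensities of 423, 320, 458 and 354 in cB, against 619, 747, 849 and 865 in DC, a difference of -1.48 ± 0.15. Pltp, a phospholipid transfer protein, was undetected on all cB arrays and, on the background-corrected scale, at least 1.75-fold higher in DC (-1.36 ± 0.15, SE). The difference was -0.48 in the authors' deposited table, -0.44 with no correction and -0.13 when all rows gave the background. Lpl, lipoprotein lipase, was detected on 1 cB array and all DC arrays (-1.73 ± 0.31). Its size too rests on the background: it was -0.66 in the authors' deposited table, -0.61 with no correction and -0.20 when all rows gave the background. Tnfaip3, an inhibitor of NF-kappaB that several other signals also induce, differed by -2.09 ± 0.14. The pair higher in cB was Scd2, a fatty acid desaturase that SREBPs also induce (1.98 ± 0.19), and Lpcat3, a phospholipid acyltransferase (0.33 ± 0.10). Of 4 tested genes of sterol esterification and oxysterol metabolism, 1 was higher in DC and none in cB. Over all tested genes these shares were 31.6% and 29.8%. The one higher in DC was the cholesteryl ester hydrolase Nceh1, listed as AADACL1 (-1.05 ± 0.11). Soat1, the esterifying enzyme, was at 0.25 ± 0.10 (limma adjusted p = 0.0576).

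Enzymes that SREBPs switch on were called in one direction. All 12 enzymes of cholesterol synthesis tested here were higher in cB, with a median difference of 2.13 and Fdps highest at 4.25. So were all 9 tested enzymes of fatty acid synthesis, elongation and desaturation, with a median of 1.98 and Fads1 highest at 3.87. Over all tested genes, 29.8% were higher in cB. Fasn, the fatty acid synthase, was not among the 9, being detected on 1 cB array and no DC array. Without the filter its difference was -0.08 (limma adjusted p = 0.854), at a signal near background. Scd1, Fads2 and Dhcr7 were detected on cB arrays alone and so passed the filter through cB; with no filter 12 of 16 enzymes of cholesterol synthesis (median 1.66) and 9 of 12 of fatty acid synthesis (median 0.91) were called, all higher in cB. In the authors' deposited table these medians were 1.24 and 1.04, and taking the background from all rows gave 1.38 and 0.90. Without cB replicate 4 that of fatty acid synthesis was 0.91 on the 7 genes still tested, since Scd1 and Fads2, undetected in DC, then missed the filter of 4 arrays.

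**Figure D4:**
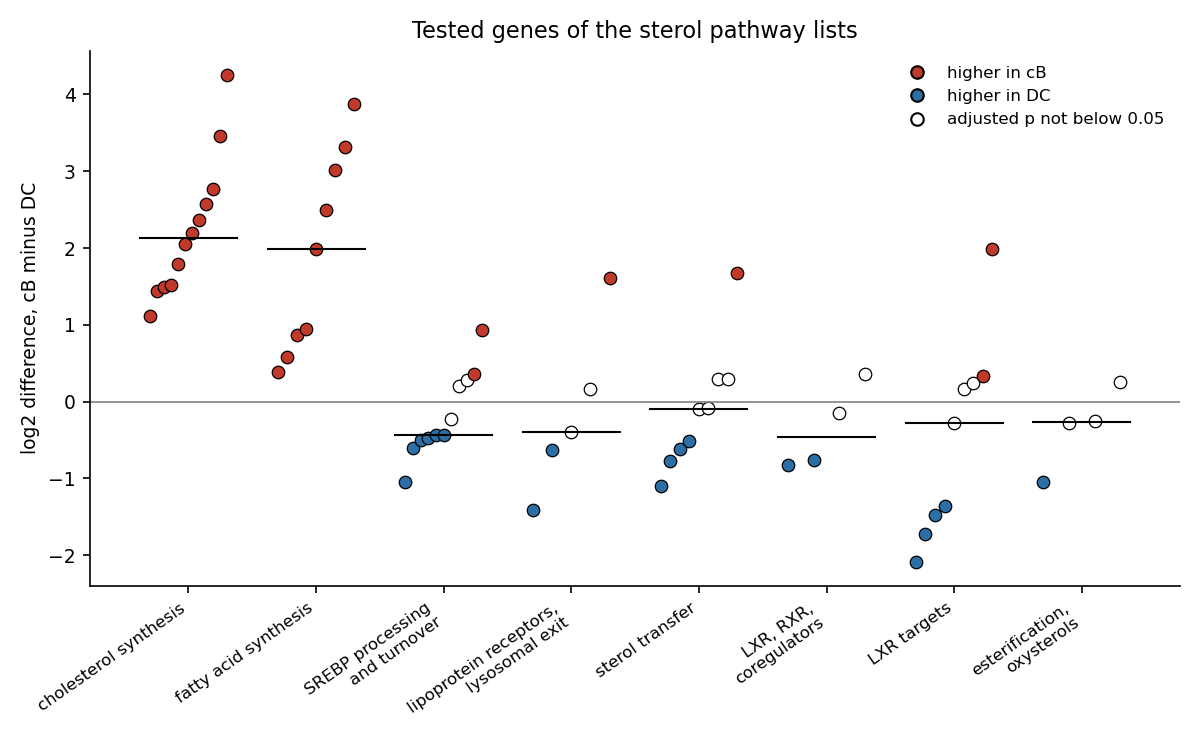
Log2 difference, cB minus DC (vertical axis), of each tested gene in 8 lists of sterol and lipid genes, with a line at each list's median; red is higher in cB, blue higher in DC, white not past the test. The 2 synthesis lists lie wholly above 0, while in each of the others at least 1 gene is higher in DC.

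Among all tested genes with a current symbol, those nearest to each member in profile over the 8 arrays were found by Euclidean distance of mean-centred log2 values. With the groups far apart, this distance largely matches genes by the size of their difference between groups, so nearness does not show shared control. The nearest to Insig1 was Vldlr (distance 0.376), followed by Stk38l (0.420) and Chchd10 (0.462). Their differences were 1.61, 1.56 and 1.48, beside 1.78 for Insig1, and both Insig1 and Vldlr were near background in DC. Stard4 had no close neighbour: Tcof1 was at 1.21 and Cdc25a at 1.23. Distances were 0.165 to 0.288 for Srebf2 (Man2c1, E2f4, Rassf2), 0.185 to 0.232 for Insig2 (Lemd2, Use1, Cstb), 0.236 to 0.317 for Scap (Ssbp2, Atp6v1d, Zcchc9) and 0.274 to 0.393 for Abcg1 (Rbpms2, Uevld, B9d2).

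Marker genes of other cell types differed between the groups, in both directions. Of 12 B cell genes in the table, 4 to 5 were detected on cB arrays and 1 on each DC array; Fcmr (2.61 ± 0.13) and Cd79b (2.44 ± 0.20) were higher in cB, Pou2af1 was higher in DC (-1.27 ± 0.16), and Pax5, Cd22 and Blk were undetected on all 8 arrays. Their summed intensity was 2472 to 2802 in cB and 2491 to 2852 in DC, with Pou2af1 alone at a mean of 452 in cB and 840 in DC. The sums given here and below take in undetected genes and were not corrected for background. They do not measure how much RNA came from a cell type. Of 17 myeloid genes, 2 to 5 were detected on cB arrays and 6 to 9 on DC arrays, with a summed intensity of 5108 to 6510 in cB and 6395 to 6595 in DC. Cd14 (-2.38 ± 0.24), Il1b (-2.28 ± 0.36), Fcer1g (-1.15 ± 0.23), Clec4n (-0.98 ± 0.24) and the brightest, Cst3 (-0.26 ± 0.10), were higher in DC, and Fscn1 was higher in cB (1.48 ± 0.21), while Itgax, Itgam and Csf1r were undetected on all 8. Summed MHC class II intensity was 5011 to 6532 in cB and 3683 to 4387 in DC. Cd74, at mean intensities of 2053 in cB and 447 in DC, weighs heavily in that sum. Of 6 tested class II genes, Cd74 was higher in cB (2.55 ± 0.31). H2-Eb1 (-0.65 ± 0.18) and H2-DMa (-0.40 ± 0.14, all SE) were higher in DC, and 3 were not called. Which cells this RNA came from, and its part in the differences of Vldlr, Pltp, Lpl and the members, was not tested. In sorted bulk cells, fewer cells of a type and less RNA per cell cannot be told apart.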

How the data were processed

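The 8 RNA samples of sorted OT-1 T cells, 4 in each of cB and DC, were hybridized to Illumina mouse-ref8-v2.0 arrays; groups and replicate numbers come from the sample titles. The deposited non-normalized table gives an average bead intensity and a detection p-value per array, per the file headers, with 1 row for each of 18138 names. A second table deposited by the authors holds their normalized log2 values of 7266 genes, 7 members among them; their method is not given in these sources. For 13929 rows the detection p-values were multiples of 1 part in 798, to within 0.001, the form that ranks among 798 negative controls take. From those rows the background was estimated; normexp correction (offset 16), quantile normalization, lmFit and eBayes were run in limma 3.58.1 under R 4.3.3, on genes detected on at least 4 arrays, with p-values adjusted over 7167 genes. The procedure was tested on simulated data. The precision is limited by 4 arrays per group.

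The members, gene lists and settings were chosen with earlier results of these data known. Beyond the members, the text names any gene of lists with at most 12 genes in the table, the 4 tested genes of lowest p in each direction of longer lists, called or brightest markers, and up to 3 nearest profiles of each tested member. A few further genes of these lists are not reported here. Alternatives changed the background, offset, normalization, filter, source of values, replicate block and single replicates. Same-numbered cB and DC samples correlated at 0.113, 0.128, 0.175 and 0.0824 in their deviations from the group means, and different-numbered samples at -0.135 to 0.0759. Array names of same-numbered samples were consecutive, but no label states a pairing. Since the correlations were not all above 0.1, the main fit did not take the numbers as pairs, and a fit with the replicate number as a block is given below. Sequences come from RefSeq tables on GRCm38.p6.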

Additional observations from a re-analysis of the deposited data

Results flagged for a closer look

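In 18 sets of 4 arrays (9 genes in cB and in DC), the gap of the most extreme array to its nearest neighbour was compared with the range of the set, against Dixon's 95% critical ratio; chance flags about 1 in 20 such sets. For Insig2, DC replicate 3 was the highest of the DC arrays with a ratio of 0.946, at a log2 level of 8.98 against 8.77 for the next. For Abca1, cB replicate 3 was the lowest of the cB arrays with a ratio of 0.869, at 4.63 against 4.87 for the next, in a gene undetected on all arrays. The low Stard4 value of cB replicate 4 had a ratio of 0.690, under the critical value.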

How the results depend on the processing

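The 5 calls among the members kept their direction and their side of the threshold in each limma setting in which the gene was tested. Insig1 was not tested at a detection p below 0.01, which left 4 calls. The exact permutation test gave p = 0.0857 for the Stard4 difference of 1.67, past no threshold, since the normalized value of cB replicate 4 lies among the DC arrays; leaving out single replicates moved that difference between 1.39 and 2.21. Over the settings the Scap difference ranged from -0.67 to -0.26, Insig2 from -0.996 to -0.53, Insig1 from 0.21 to 1.93 and Srebf2 from 0.70 to 0.96. Abcg1 stayed uncalled in 17 settings (-0.41 to -0.02, adjusted p 0.0949 to 0.582). Genes called over the whole table numbered 3823 (median scaling) to 4743 (the authors' gene-level values), against 4397. With the replicate number as a block, 4431 genes were called and the members' calls were unchanged (Stard4 limma adjusted p = 0.0133). Each cB sample's deviations correlated best with those of the same-numbered DC sample, a hint of pairing that no label states. Vldlr was not tested without any one cB replicate, since it was detected on cB arrays alone. Signal near background limits Insig1 in DC and Abcg1, and leaves Abca1 and Mylip unmeasured.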
